A study of Rattus norvegicus with 4 samples.

Results

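Muscle contracts when calcium leaves the sarcoplasmic reticulum and relaxes when calcium is pumped back into it, and the 7 genes described here encode the pumps, the calcium buffers and the small proteins that hold the pumps in check. Atp2a1 and Atp2a2 encode the calcium pumps SERCA1, the main form of adult fast-twitch fibres, and SERCA2, the main form of slow-twitch fibres and heart. Casq1 and Casq2 encode calsequestrins, which bind calcium inside the reticulum, the first being the skeletal form and the second the form of heart and slow fibres. Pvalb encodes parvalbumin, a soluble calcium buffer of the cytoplasm that is abundant in fast fibres of small mammals. Pln and Sln encode phospholamban and sarcolipin, short membrane proteins that bind the pumps and lower their activity. The members were chosen by gene symbol, and all 7 of them were on the array, with 9 probes in all, among 26624 genes or unnamed accessions. All 7 were also among the 13326 genes tested, those that the scanner software marked as well above background on 2 or more of the 4 arrays.

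Skeletal muscle RNA of male rats aged 15 weeks was measured on 4 one-colour arrays. Sedentary wild type (WT) Wistar rat muscle gave 2 arrays, here WT array 1 and WT array 2, and SPORTS rats gave 1 array after exercise and 1 array from a sedentary animal. SPORTS is a hyperactive mutant rat on the Wistar background, and exercised and sedentary SPORTS rats were compared with WT. The labels give neither the muscle sampled, nor the kind or length of the exercise, nor the mutated gene, nor whether the WT arrays come from separate animals, so every p-value below rests on a spread between arrays that may be technical. A level below is the log2 signal minus the array's 75th percentile over all probes, so a level of 0 is the signal at that percentile. Every member probe was well above background on all 4 arrays, and none was saturated on any.

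The arrays carried skeletal muscle RNA. All 4 tested skeletal muscle markers (Acta1, Ckm, Mb and Des) lay between 7.10 and 8.93 on every array. Of 10 heart muscle markers, 4 (Nppa, Nppb, Myl7 and Mybpc3) were not well above background on any array. The other 6 were tested, with levels in WT of 8.33 on both arrays for the myosin gene Myh6 and of 8.03 and 8.0 for the light chain gene Myl4. The summed level of the 6 was 9.19 and 9.18 in WT, 8.96 in sedentary and 7.20 in exercised SPORTS muscle. The 4 arrays shared 1 slide. The share of probes well above background was 48.7% and 48.9% in WT, 50.3% in sedentary and 46.0% in exercised SPORTS muscle. The 75th percentile signal was 1100 and 1080 in WT, 1110 in sedentary and 864 in exercised SPORTS muscle. Scaling by that percentile thus raises every level on the exercised array relative to the others. By summed level, both SPORTS arrays stood apart from WT in fast fibre genes, in opposite directions. In slow fibre genes only the exercised array did. Genes of fast fibres other than the members had a summed level of 9.97 and 10.03 in WT, 7.95 in sedentary and 11.35 in exercised SPORTS muscle (8 of 10 listed genes tested). Genes of slow fibres had summed levels of 10.97, 10.94, 10.88 and 9.10 in the same order (9 of 9 tested). These fibre lists moved with several results below, and their part in those results was not tested. In whole muscle, fewer fibres of a type and less RNA per fibre cannot be told apart.

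**Figure D1:**
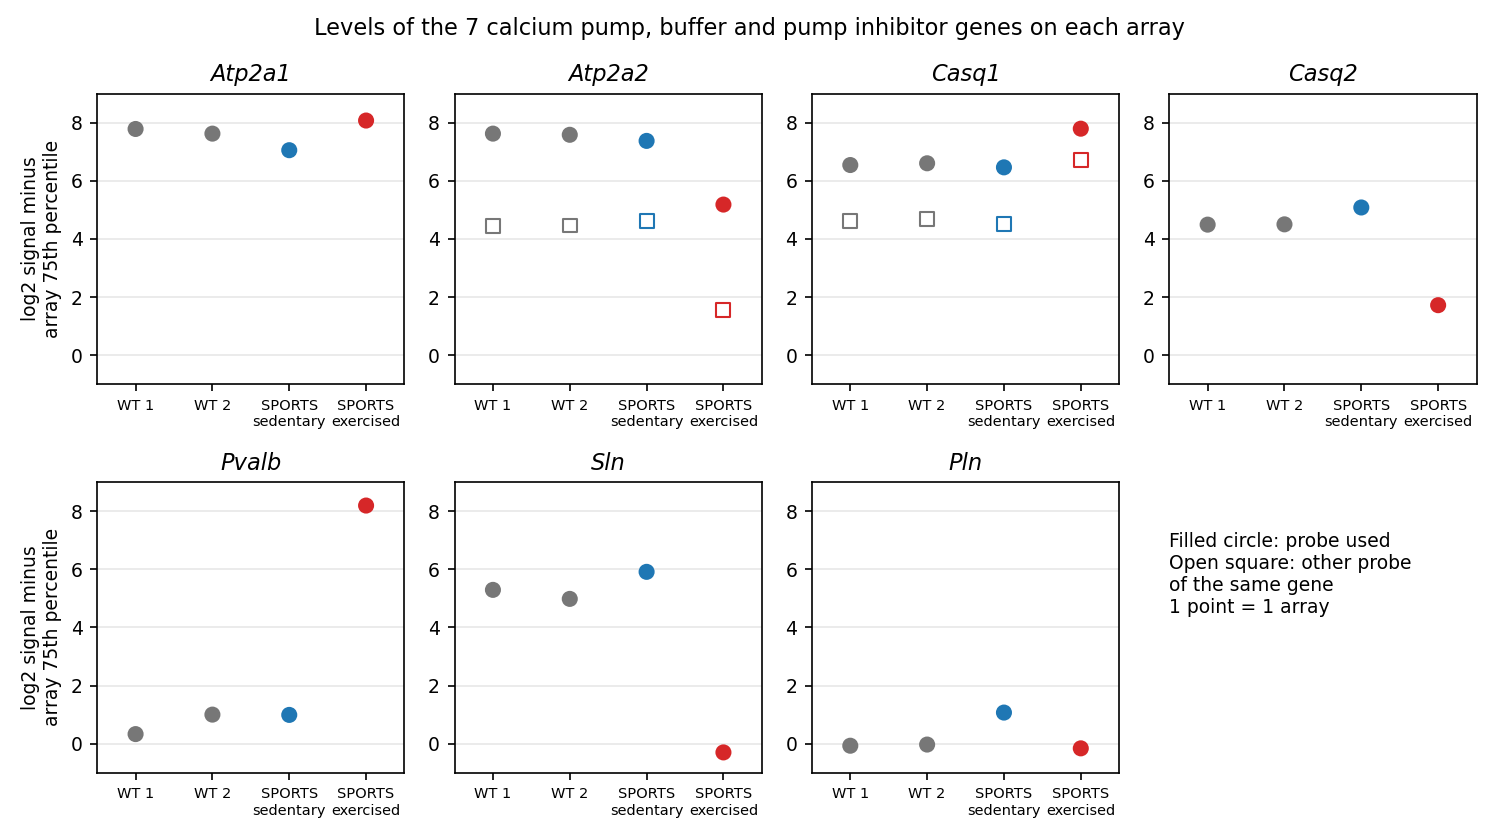
Levels of the 7 genes on each of the 4 arrays, as log2 signal minus the array's 75th percentile; filled circles are the probe used for the gene and open squares its other probe. Pvalb stands at 8.19 on the exercised SPORTS array and at 1.0 or below on the other 3, and Sln at -0.30 against 4.98 or above.

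In the comparison of the exercised SPORTS array with WT, Pvalb rose 184-fold and the skeletal calsequestrin gene Casq1 rose 2.33-fold, while Sln fell 43.1-fold, the heart and slow-fibre calsequestrin gene Casq2 fell 6.85-fold and the pump gene Atp2a2 fell 5.37-fold. These 5 of the 7 genes passed an adjusted p of 0.05 (limma, 3-group fit), where 53.3% of all genes tested passed, 27.3% higher and 26.0% lower. The share of members called was therefore not far from that of all genes, and it is the sizes of the Pvalb and Sln differences that set them apart from most genes. The difference of Pvalb ranked 2 from the top of 13326 genes and that of Sln ranked 13 from the bottom. Atp2a1 and Pln did not pass. The arrays compared differ in genotype and in exercise at once, and there was no exercised WT array. The parts of genotype, exercise, the animal and the muscle sampled cannot be told apart here. Only the WT pair supplied the spread of this fit (1 residual degree of freedom), which limma draws toward that of all genes tested. A call thus says that 1 SPORTS array differed from WT by much more than this moderated spread. Variation among SPORTS rats was not measured.

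Among the pumps, Atp2a2 had levels of 7.62 and 7.58 in WT, 7.37 in sedentary and 5.18 in exercised SPORTS muscle. The exercised array was thus far below the other 3, which lay within 0.25 of each other. Against WT the exercised array fell by 2.42 ± 0.07 on the log2 scale (± is the standard error of the fit; adjusted p = 0.00426, limma). The sedentary array differed from WT by -0.23 ± 0.07, which did not pass (adjusted p = 0.133, limma). A further probe of Atp2a2, printed in 10 spots per array and matched to another of the gene's transcripts, gave levels of 4.45 and 4.46 in WT, 4.63 in sedentary and 1.56 in exercised SPORTS muscle. The SD between its 10 spots was between 0.03 and 0.06 on each array, and the exercised array differed from WT by -2.90. The spot SD covers noise within an array only, not variation between animals. On the sedentary array this probe was higher than WT by 0.17, the other way from the first probe, so no direction can be given there.

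The fast-fibre pump gene Atp2a1 had levels of 7.78 and 7.62 in WT, 7.05 in sedentary and 8.07 in exercised SPORTS muscle. It was lowest on the sedentary and highest on the exercised array, and the WT arrays lay between. Neither step passed the test: the exercised array differed from WT by 0.37 ± 0.10 (adjusted p = 0.0668, limma) and the sedentary array by -0.64 ± 0.10 (adjusted p = 0.0639, limma). The higher value on the exercised array rests on the scaling, since its unscaled signal of 232014 lay between the 240204 and 213327 of the WT arrays, and quantile normalization turned the difference to -0.15. The sedentary value of 147730 was below both WT arrays before scaling too.

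Within an array, the ratio of 2 probes does not depend on any scaling by 1 factor per array. The signal of Atp2a1 over that of Atp2a2, set to its WT mean, was on the log2 scale 0.05 and -0.05 in WT, -0.42 in sedentary and 2.79 in exercised SPORTS muscle. The balance between the pump transcripts was thus 6.94-fold further toward Atp2a1 on the exercised array than in WT, and 1.33-fold toward Atp2a2 on the sedentary array. The exercised shift was 2.51 (log2) with quantile normalization, which does not use 1 factor per array, and 3.27 with the other probe of Atp2a2 (both chosen after seeing the data). With that probe the sedentary shift was -0.82. The sedentary shift exceeded the gap of the WT pair, without a replicate to check it.

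**Figure D2:**
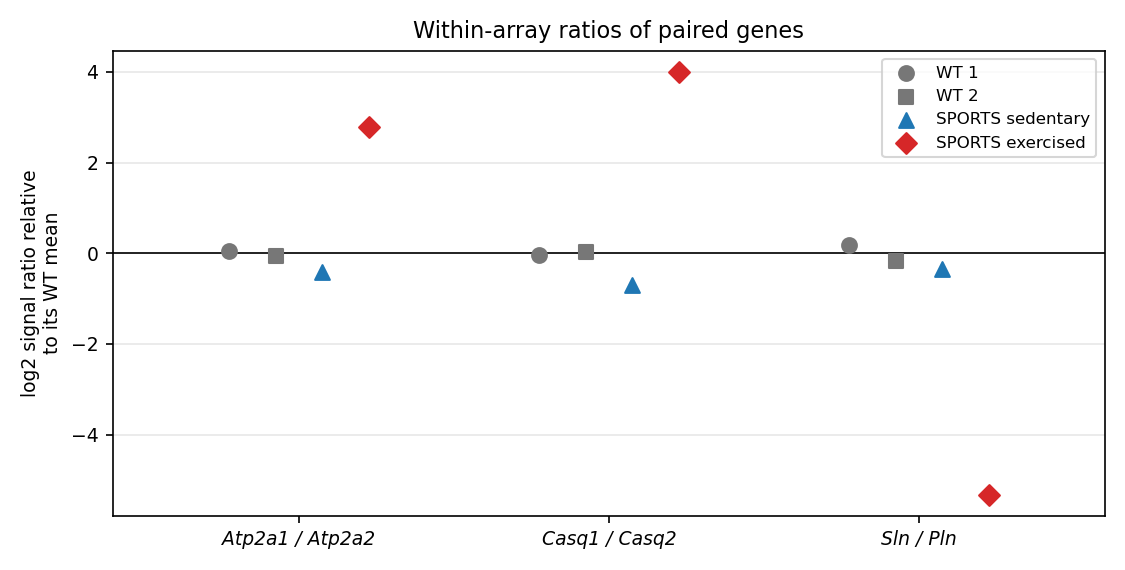
Log2 ratio of the signals of 2 genes within each array, relative to the mean of that ratio on the WT arrays, for the pumps, the calsequestrins and the pump inhibitors; 1 point is 1 array. The exercised SPORTS array lies at 2.79, 4.0 and -5.32, and the other 3 arrays lie within 0.69 of 0.

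The calsequestrin genes split in the same way. Casq1 had levels of 6.54 and 6.60 in WT, 6.46 in sedentary and 7.79 in exercised SPORTS muscle. Only the exercised array stood out, and it rose by 1.22 ± 0.07 against WT (adjusted p = 0.00568, limma), while the sedentary array differed by -0.11 ± 0.07 (adjusted p = 0.351, limma). A second probe of Casq1 for the same transcript gave a larger difference on the exercised array, 2.07, and -0.13 on the sedentary one. The rise of Casq1 ranged from 0.72 with quantile normalization to 1.65 with the mean of both probes, and it passed under all 10 alternatives of the processing tried.

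Casq2 moved the other way. Its levels were 4.49 and 4.50 in WT, 5.08 in sedentary and 1.72 in exercised SPORTS muscle, so the WT arrays nearly coincided and the SPORTS arrays lay on either side of them. It fell by 2.78 ± 0.06 on the exercised array (adjusted p = 0.00424, limma). On the sedentary array it was higher than WT by 0.58 ± 0.06, which just missed the threshold (adjusted p = 0.0510, limma, from 0.0124 to 0.122 over the alternatives, 6 of 10 of which called it). The ratio of Casq1 to Casq2 was shifted 16.0-fold toward Casq1 on the exercised array and 1.61-fold toward Casq2 on the sedentary one. These shifts are for the brighter Casq1 probe; with its other probe the exercised shift was 28.7-fold, and with quantile normalization it was 12.2-fold (both chosen after seeing the data). Slow fibre genes, which had a median of -2.22 on the exercised array with 8 of 9 called lower, had a median of -0.07 on the sedentary array with 1 of 9 called, so Casq2 was above the median of that list there.

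The calsequestrin genes are shown by the 250 bases before their RefSeq start (build GRCr8), since they encode related proteins and differed in opposite directions. Capitals mark the E-box letters CANNTG, which factors of the MyoD family are known to bind. Casq1 lies at chr13:87212711-87212960 on the minus strand and Casq2 at chr2:192214306-192214555 on the plus strand.
Casq1: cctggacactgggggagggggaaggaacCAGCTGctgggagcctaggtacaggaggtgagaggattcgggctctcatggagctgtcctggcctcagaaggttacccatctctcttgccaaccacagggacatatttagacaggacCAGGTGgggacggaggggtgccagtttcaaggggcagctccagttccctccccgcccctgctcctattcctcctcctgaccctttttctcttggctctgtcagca
Casq2: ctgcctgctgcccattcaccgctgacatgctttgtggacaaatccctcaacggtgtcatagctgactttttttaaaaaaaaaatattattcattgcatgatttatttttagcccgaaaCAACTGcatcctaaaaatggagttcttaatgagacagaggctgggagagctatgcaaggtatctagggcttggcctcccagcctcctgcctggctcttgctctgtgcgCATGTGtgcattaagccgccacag
Each holds 2 E-boxes, and 65.5% of 33469 rat promoter windows of this length hold at least 1. Casq2 also has 1 match to the MEF2 motif, which 2.96% of the windows hold and which was not found in the windows of the other 5 genes with an entry. The letters GGAAA, the core that NFAT factors bind, were in none of the 6 windows on either strand, though 56.9% of all windows hold them. The MEF2 match of Casq2 does not overlap its E-boxes. A match is a description of the letters and not a site of binding.

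The largest difference of the 7 genes was that of Pvalb. Its levels were 0.33 and 1.0 in WT, 0.99 in sedentary and 8.19 in exercised SPORTS muscle. The sedentary array fell within the WT pair, while the exercised array was above the nearest WT array by 7.19. In unscaled signal this was 251875 against 1379 and 2163 in WT and 2206 in sedentary SPORTS muscle. Pvalb rose by 7.52 ± 0.35 on the exercised array (adjusted p = 0.0049, limma) and differed by 0.32 ± 0.35 on the sedentary array (adjusted p = 0.553, limma). The WT arrays were 0.67 apart, the widest gap of the 7 genes, and the sedentary value was -0.01 without WT array 1 and 0.66 without WT array 2. The 250 bases before the start of Pvalb are given because no member rose more; they lie at chr7:111666290-111666539 on the minus strand (GRCr8), again with E-boxes in capitals.
Pvalb: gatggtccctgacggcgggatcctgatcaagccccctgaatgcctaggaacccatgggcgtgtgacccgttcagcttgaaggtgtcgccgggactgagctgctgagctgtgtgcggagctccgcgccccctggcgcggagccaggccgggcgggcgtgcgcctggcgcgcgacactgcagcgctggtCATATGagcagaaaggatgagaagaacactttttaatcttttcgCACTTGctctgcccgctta
This window holds 2 E-boxes, and those of Atp2a1, Atp2a2 and Pln hold 1 each, so the E-box count did not separate the genes that rose from those that fell.

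The pump inhibitor Sln had levels of 5.29 and 4.98 in WT, 5.91 in sedentary and -0.30 in exercised SPORTS muscle. It was highest on the sedentary array and, on the exercised array, below the nearest WT array by 5.27. Sln fell by 5.43 ± 0.17 on the exercised array (adjusted p = 0.00435, limma). The sedentary array was 0.77 ± 0.17 above WT and did not pass (adjusted p = 0.0948, limma, called by 2 of 10 alternatives). Unscaled, the signal was 42825 and 34050 in WT, 66596 in sedentary and 703 in exercised SPORTS muscle.

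Pln, the inhibitor best known from heart, had another pattern. Its levels were -0.07 and -0.03 in WT, -0.16 in exercised and 1.07 in sedentary SPORTS muscle, so here the sedentary array stood apart and the exercised one was close to WT. In the comparison of sedentary SPORTS with WT, Pln rose by 1.12 ± 0.07, or 2.18-fold (adjusted p = 0.0369, limma). Pln was the only one of the 7 genes to pass there, where 6.27% of all genes tested passed, 2.82% higher and 3.45% lower, and it passed under 9 of the 10 alternatives. Without a filter on dim genes its adjusted p was 0.0833 (limma). The exercised array differed from WT by -0.11 ± 0.07 (adjusted p = 0.247, limma), a difference that turned to 0.11 with median scaling. Smooth muscle, which also expresses Pln, was followed by 7 markers on the array, 5 of them tested. Their summed level was 4.63 and 4.67 in WT, 5.09 in sedentary and 4.40 in exercised SPORTS muscle. On the sedentary array 1 of 5 was called higher (Acta2, by 0.70). Smtn (0.53), Tagln (0.43), Myh11 (0.06) and Mylk (0) were not called there. Cnn1, which was not tested, was well above background on the sedentary array alone. On the exercised array, where Pln was close to WT, Acta2 differed from WT by 0.80, Tagln by 0.60 and Smtn by -0.95. Myh11 and Mylk differed there by 0.12 each. The part of the smooth muscle markers in the Pln result was not tested.

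**Figure D3:**
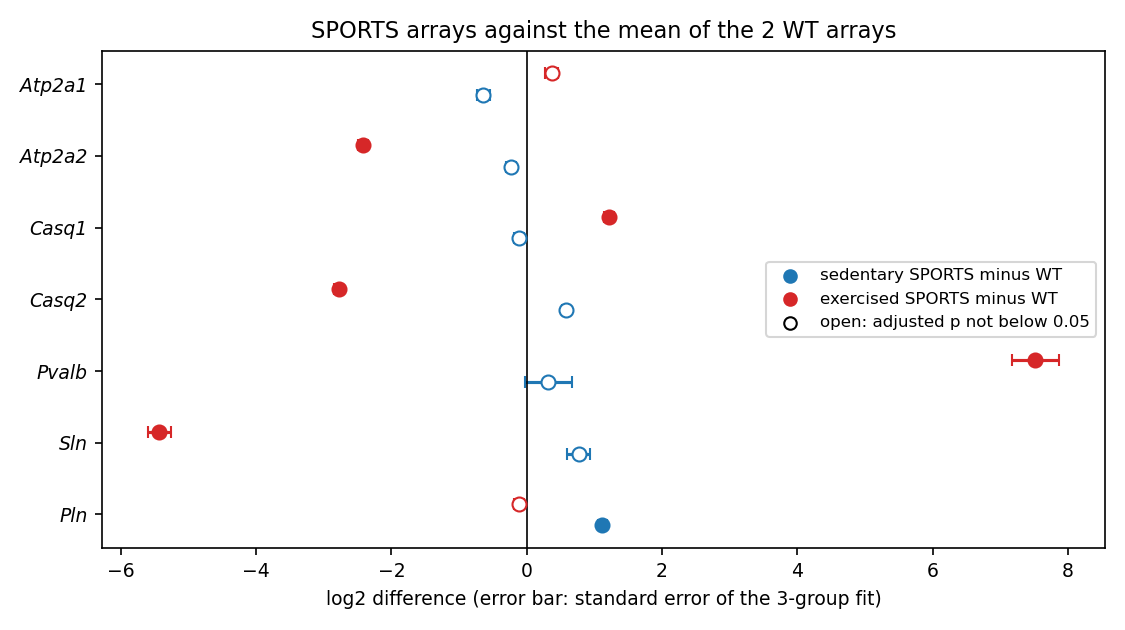
Log2 difference of each SPORTS array from the mean of the 2 WT arrays for the 7 genes, with the standard error of the 3-group fit; filled points had an adjusted p below 0.05. On the exercised array Pvalb (7.52) and Casq1 (1.22) were called higher and Atp2a2, Casq2 and Sln lower, and on the sedentary array only Pln (1.12) was called.

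On the sedentary array Atp2a1 and Pvalb, the members known from fast fibres, were closer to WT than the middle of the fast fibre list. There the list had a median of -3.30 against WT, with 5 of 8 called lower, among them Myh4 and Tnni2. Beside that median, Atp2a1 differed by -0.64 and Pvalb by 0.32. Casq1, the skeletal calsequestrin gene, differed by -0.11. The list itself was spread, with Myl1 at -0.24 and Actn3 at -0.83, while its other genes lay between -3.78 (Myh4) and -1.86 (Tnnc2). Being near WT was thus not particular to the members. These differences between the members and the list were not tested. On the exercised array the list's median was 1.01, with 7 of 8 higher than WT and Myh2 lower (-0.43). The list was spread there too: Myh4 was at 7.40, Actn3 at 6.82 and Myh1 at 3.19, beside 7.52 for Pvalb. Its remaining genes lay between 0.51 (Tnni2) and 1.22 (Tnnt3). Slow fibre genes ranged on that array from -4.06 (Myl2) to 0.10 (Csrp3), beside -5.43 for Sln.

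The third comparison was between the SPORTS arrays, whose labels differ in exercise only. Exercise cannot be told apart here from differences of the animal or of the muscle sampled, which the labels do not name. With 1 array per condition this comparison has no replicate check and no p is given. All 7 genes were at least 2-fold apart, where 21.9% of all genes tested were, 9.11% higher and 12.8% lower on the exercised array. Pvalb was 147-fold higher on the exercised array, Casq1 2.51-fold and Atp2a1 2.02-fold. Sln was 73.6-fold lower, Casq2 10.2-fold, Atp2a2 4.58-fold and Pln 2.35-fold. Pvalb ranked 5 from the top and Sln 4 from the bottom of 13326 genes. Atp2a1 was at the edge of the 2-fold mark, with differences from 0.38 to 1.21 on the log2 scale over the alternatives, and Casq1 ranged from 0.78 to 1.76. The other 5 stayed at least 2-fold apart under all 10 alternatives.

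The comparisons of each SPORTS array with WT share the WT arrays. For 5 genes (Atp2a1, Casq1, Casq2, Pln and Sln) the SPORTS arrays lay on opposite sides of both WT arrays, as they did for 37.6% of all genes tested. By the probes used, only Atp2a2 had both SPORTS arrays on one side of WT, below, as 43.7% of all genes had on either side. By its other probe the sedentary array was above WT, by 0.17. When both SPORTS arrays were set against both WT arrays, none of the 7 genes was called (limma, 2 against 2), nor was any of the 13326 (0%). At an unadjusted p under 0.05 there were 982 genes, none of them a member. Pvalb differed by 3.92 ± 2.76 (adjusted p = 0.772, limma), Sln by -2.33 ± 2.37 (adjusted p = 0.789, limma) and Atp2a2 by -1.33 ± 0.85 (adjusted p = 0.768, limma). The spread of this fit holds the gap between the SPORTS arrays as well as that of the WT pair. For each of these 3 genes the SPORTS arrays differed from each other by more than their mean differed from WT. Without the exercised array 1 member was called (Pln), and without the sedentary array 5 were.

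The other genes of muscle calcium handling on a list of 49 were measured for 42, of which 35 were tested. On the exercised array 26 of the 35 rose and 3 fell against WT, with a median of 0.65 beside 0.00 for all genes tested, of which 27.3% rose and 26.0% fell. Parts of calcineurin, the phosphatase that calcium and calmodulin switch on, rose: Ppp3cb by 2.32 ± 0.06, Ppp3r1 by 1.79 ± 0.16 and Ppp3ca by 1.62 ± 0.06. Atp2b3, which encodes a calcium pump of the plasma membrane, rose by 2.84 ± 0.19 and the calmodulin-dependent kinase gene Camk2d by 2.43 ± 0.07. Mcu, the pore of the mitochondrial calcium uniporter, rose by 1.64 ± 0.07 and the calmodulin gene Calm3 by 1.45 ± 0.07. The adjusted p of these 7 genes ranged from 0.00424 to 0.0103 (limma). The 3 genes that fell were Itpr3, Camk2b and Atp2a3, the last encoding a further SERCA pump, by 0.40 ± 0.07. Itpr3, an inositol trisphosphate receptor gene, was not well above background on the exercised array and was at least 1.37-fold lower there. Camk2b and Atp2a3 were named after their values were seen. ("At least" sets the mean of the brighter arrays against the higher of the dim value and the lowest signal well above background on that array.)

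On the sedentary array 1 of the 35 genes was called, where 6.27% of all genes tested were. This was Camk2d, which rose by 0.70 (adjusted p = 0.0479, limma), and the median was 0.01 beside -0.01 for all genes tested. Between the SPORTS arrays 11 of the 35 passed the 2-fold mark upward and 1 downward on the exercised array. Of all genes tested, 9.11% passed it upward and 12.8% downward. Atp2b3 was higher by the most, 3.32 on the log2 scale. Cacna2d1, a subunit of the calcium channel that senses voltage in the transverse tubule, was higher by 1.53. The lower gene was Itpr3 (-1.40). Median scaling moved the median of all genes by 0.23 in the exercised comparison and gave 28 rises and 1 fall for the list, and quantile normalization gave 25 and 5. Over all genes, median scaling gave 5571 higher and 2505 lower calls in place of 3634 and 3463, and the 75th percentile over probes well above background on all arrays gave 2733 and 4517. Between the SPORTS arrays, genes at least 2-fold apart were 1663 higher and 1354 lower with median scaling, in place of 1214 and 1706.

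**Figure D4:**
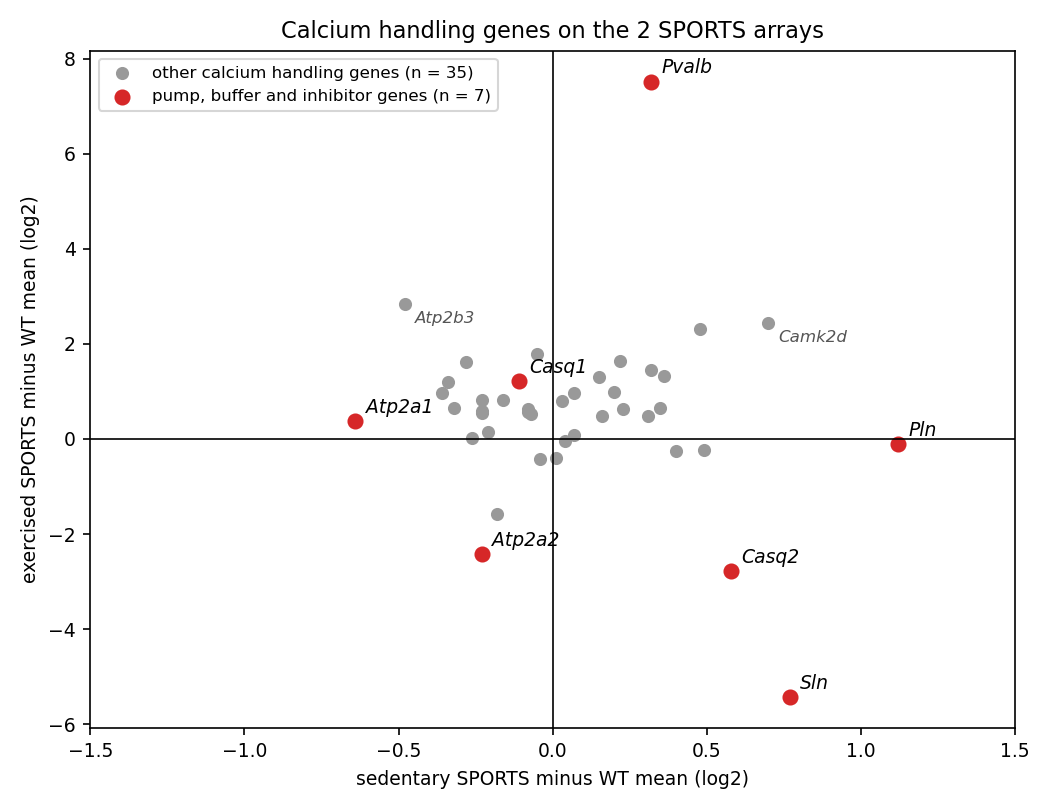
Difference from the WT mean on the sedentary SPORTS array (horizontal, log2) and on the exercised SPORTS array (vertical, log2, a wider scale) for the 7 genes in red and the 35 other calcium handling genes tested in grey; 1 point is 1 gene. Most grey points lie above 0 on the vertical axis, as 26 of 35 were called higher, while Atp2a2, Casq2 and Sln lie at -2.42 or below.

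Genes with the most similar pattern were sought among the other 8476 tested genes with a symbol, by the root mean square difference of the 4 array values after each gene was centred on its mean. With 4 arrays such a likeness is a description only. For Pvalb the nearest were Mss51 (0.48 on the log2 scale), Actn3, the fast fibre actin-binding gene (0.52), and Atp1b2, a sodium pump subunit gene (0.83). For Sln they were Epn3 (0.35), Cda (0.36) and Trem2 (0.41). These distances were larger than those of the other members. For Casq1 the nearest were Larp1b (0.01), Usp25 (0.02) and P4ha1 (0.02), and for Atp2a2 Pcsk1n (0.01), Ampd3 (0.04) and Dlgap2 (0.04). Casq2 was nearest to Dnase1l3 (0.05), Dapp1 (0.05) and Nmb (0.07). Pln was nearest to Pde10a (0.05), Phf11 (0.05) and Rnd1 (0.06), and Atp2a1 to Ints12 (0.05), Klf5 (0.05) and Sec31b (0.06).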

How the data were processed

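Per the labels' protocols, total RNA was purified on columns and labelled with Cy3 for one-colour arrays. Per the file headers, Agilent Feature Extraction 10.7.1.1 quantified the scans. The deposited processed signal is an intensity, background-subtracted and detrended within each array and not scaled between arrays. The authors' deposited value table is in log2, centred on each probe's median; its differences followed those of the scanner values with r = 1 over 30015 probes.

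Control spots and outlier flags were left out and the spots of a probe averaged, which dropped 352 of 30367 probes. Accessions were named through a RefSeq table of GRCr8 (59.4% of probes got 1 symbol), and the array's design is older. The probe with the highest mean stood for a gene; other member probes are given beside it. limma 3.58.1 in R 4.3.3 was used for two-sided tests, with Benjamini-Hochberg adjustment of p-values over all 13326 genes. A 3-group fit gave each SPORTS array against WT, and a 2-genotype fit both against WT. Between the SPORTS arrays 2-fold was the mark. The number of arrays limits the precision, and a difference that did not pass is not shown to be absent. The alternatives were other scalings, quantile normalization, normexp on the median signal and median background (offset 50), other filters, a floor, the authors' table, the mean of probes, a variance trend and leaving out arrays. Promoter windows were found for 6 of 7 members, all but Sln. The members, the lists and the rule for naming genes (all members, at most 8 called list genes with the largest difference per comparison, and 3 like patterns per member) were chosen with earlier results of these data known. An item of the calcium handling list is not reported here.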

Additional observations from a re-analysis of the deposited data

Results flagged for a closer look

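For 5 genes the exercised and the sedentary SPORTS arrays lay on opposite sides of both WT arrays, and each such difference between the groups was not tested because each rests on 1 array. In log2 difference from the WT mean, Sln was at -5.43 on the exercised and 0.77 on the sedentary array, Casq2 at -2.78 and 0.58, and Casq1 at 1.22 and -0.11. Atp2a1 was at 0.37 and -0.64, the first of which changes sign with quantile normalization. Pln was at -0.11 and 1.12, the first of which changes sign with median scaling. Of all genes tested, 37.6% had this arrangement.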

How the results depend on the processing

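The 5 calls of the exercised comparison (Atp2a2, Casq1, Casq2, Sln and Pvalb) held under all 10 alternatives other than leaving out arrays. Calls of the sedentary comparison depended on the setting: in place of 1, the number of members called was 2 with median scaling, 2 with the 75th percentile of bright probes alone, 2 with a floor on dim values, 3 when a gene had to be well above background on all 4 arrays, 4 with normexp, 5 with a variance trend and 0 with no filter on dim genes. The calcium handling list had 4 called there with normexp, 5 under the strictest filter, 11 with a variance trend, and 0 with no filter or with the mean of all probes, in place of 1. Over all genes, normexp gave 1032 higher and 1078 lower calls there in place of 376 and 460. Median scaling gave 412 and 416, and the 75th percentile of bright probes 472 and 674. Counts over all genes under the other settings are not given, so the extra calls cannot be read as particular to these genes. Under these alternatives the differences from WT of single SPORTS arrays that changed sign were those of Atp2a1 (-0.15 with quantile normalization) and Pln (0.11 with median scaling) on the exercised array, neither of them called; the cause was not tested. Pvalb on the sedentary array, not called either, differed from WT by -0.01 without WT array 1 and by 0.66 without WT array 2.

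Leaving out 1 SPORTS array turned the 2 against 2 comparison into that of the other. The number of members called, 0 with all arrays, ranged from 0 to 5 and that of the list from 0 to 29, with 1 of each without the exercised array and 5 and 29 without the sedentary one. The differences then ranged from -0.64 to 0.37 for Atp2a1, from -0.11 to 1.22 for Casq1, from -2.78 to 0.58 for Casq2, from -0.11 to 1.12 for Pln and from -5.43 to 0.77 for Sln, the ends being the values of single SPORTS arrays. Leaving out a WT array left the 3-group fit with no residual degree of freedom, so no count of calls could be given; the calls of the exercised comparison kept their direction, with Pvalb from 7.19 to 7.86 and Sln from -5.58 to -5.27. No paired analysis was possible because the labels give no pairing of the arrays and each SPORTS condition has 1 array.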

Other observations

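Tnnt2, the troponin T gene of heart and of developing skeletal muscle, was chosen from the heart list after its values were seen. The 6 tested genes of that list had a median of -0.25 against WT on the sedentary array. Tnni3 (-0.62) and Myh6 (-0.52) were lower there and Gja5 (0.86) higher, with Myl4 at 0.02. Hcn4, not well above background there, was at least 1.56-fold lower. Tnnt2 levels were 1.34 and 1.20 in WT, 3.61 in sedentary and -0.40 in exercised SPORTS muscle. On the exercised array it differed from WT by -1.67, where Pln differed by -0.11. Like Pln it was called higher on the sedentary array, by 2.34 (adjusted p = 0.0322, limma, 3-group fit).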
